A study of Mus musculus with 3 samples.

Results

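The genes described here make, load, take up and break down GABA, the main inhibitory transmitter of the brain, or set the chloride gradient on which its action depends. The 9 genes were *Gad1*, *Gad2*, *Slc32a1*, *Slc6a11*, *Abat*, *Aldh5a1*, *Slc12a2*, *Slc12a5* and *Slc38a1*, chosen by name and found on the array through the RefSeq transcript that each probe is designed against. They were measured by 13 of the 26582 probes with a gene name, and are 9 of the 20145 genes so named.

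RNA was measured in 3 sorted cell populations with 1 single-color array each, all on 1 slide. Cells sorted as positive or negative for Lhx6-GFP from a culture (ES-GFP+ and ES-GFP-) came from male 129S4/SvJae mouse embryonic stem (ES) cells of the J14 line, which carry GFP on an *Lhx6* bacterial artificial chromosome (BAC) and, per the labels, a viral *692*-mCherry reporter of an MGE enhancer. Both were sorted by fluorescence on day 12 of a differentiation toward medial ganglionic eminence (MGE) cells with 100 ng/ml Dkk-1, which blocks Wnt signaling, and 6 nM SAG, which activates Sonic hedgehog signaling, from a pool of 1920 aggregates grown in 20 plates and dissociated with Rock inhibitor. MGE-GFP+ cells were sorted fresh from the MGE of E12.5 mouse embryos of the CD1 background, labeled female, with an *Lhx6*-GFP BAC, and the number of embryos is not given in the sources used here. GFP thus reports the activity of the *Lhx6* BAC and not GABA itself, ES-GFP- cells are the GFP-negative living cells of the same aggregates, and strain, sex and culture cannot be told apart from origin wherever MGE-GFP+ cells are compared with cultured cells.

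GABA is made from glutamate by the decarboxylases GAD67 and GAD65, which *Gad1* and *Gad2* encode, and is loaded into synaptic vesicles by the vesicular transporter VGAT, the product of *Slc32a1*. After release it is taken up by membrane transporters such as GAT3 (*Slc6a11*), and is broken down in mitochondria by GABA transaminase (*Abat*) and succinic semialdehyde dehydrogenase (*Aldh5a1*), while the amino acid transporter SNAT1 (*Slc38a1*) brings in glutamine, from which neurons make glutamate. Chloride is carried into immature neurons by NKCC1 (*Slc12a2*) and out of maturing ones by KCC2 (*Slc12a5*), and the balance of the pair sets whether GABA depolarizes or hyperpolarizes a cell. Cortical interneurons that arise in the MGE switch on the synthesis genes early, as they leave the cell cycle, and KCC2 later.

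*Gad1*, *Gad2*, *Slc32a1* and *Slc12a5* are the genes that were at least 2-fold higher in ES-GFP+ cells than in ES-GFP- cells, and the sequence around their annotated starts is shown because all but *Slc12a5* were also at least 2-fold higher in MGE-GFP+ than in ES-GFP- cells. Each is the RefSeq window of 300 bases, 250 before the start and 50 after it, on the plus strand of build GRCm38.p6. The positions are chr2:70561879-70562178 for *Gad1*, chr2:22622077-22622376 for *Gad2*, chr2:158610508-158610807 for *Slc32a1*, and chr2:164960596-164960895 and chr2:164967738-164968037 for 2 starts of *Slc12a5*. Capitals mark matches to a GC box (GGGCGG) or a TATA box (TATAAA) on either strand.
Gad1: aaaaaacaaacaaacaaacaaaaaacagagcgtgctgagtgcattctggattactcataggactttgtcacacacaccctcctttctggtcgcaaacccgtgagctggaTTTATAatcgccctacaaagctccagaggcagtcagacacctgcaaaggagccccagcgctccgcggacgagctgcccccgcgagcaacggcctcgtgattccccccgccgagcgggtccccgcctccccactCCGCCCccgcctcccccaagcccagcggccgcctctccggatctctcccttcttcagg
Gad2: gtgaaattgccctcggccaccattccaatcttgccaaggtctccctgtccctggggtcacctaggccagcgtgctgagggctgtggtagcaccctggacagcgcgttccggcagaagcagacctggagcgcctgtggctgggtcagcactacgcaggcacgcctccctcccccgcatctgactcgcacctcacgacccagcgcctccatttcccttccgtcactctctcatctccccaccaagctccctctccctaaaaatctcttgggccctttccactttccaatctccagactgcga
Slc32a1: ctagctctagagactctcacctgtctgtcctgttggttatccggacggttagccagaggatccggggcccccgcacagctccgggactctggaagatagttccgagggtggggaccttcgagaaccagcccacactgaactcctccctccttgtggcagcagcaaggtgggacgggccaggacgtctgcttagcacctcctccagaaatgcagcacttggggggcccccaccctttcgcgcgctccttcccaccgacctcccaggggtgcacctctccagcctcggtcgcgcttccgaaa
Slc12a5, upstream start: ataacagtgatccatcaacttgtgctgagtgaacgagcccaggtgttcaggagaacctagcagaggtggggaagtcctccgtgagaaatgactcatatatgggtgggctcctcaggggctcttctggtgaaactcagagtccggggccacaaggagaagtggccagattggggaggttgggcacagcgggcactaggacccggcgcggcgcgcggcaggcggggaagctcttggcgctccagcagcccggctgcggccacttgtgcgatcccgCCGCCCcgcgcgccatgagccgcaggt
Slc12a5, downstream start: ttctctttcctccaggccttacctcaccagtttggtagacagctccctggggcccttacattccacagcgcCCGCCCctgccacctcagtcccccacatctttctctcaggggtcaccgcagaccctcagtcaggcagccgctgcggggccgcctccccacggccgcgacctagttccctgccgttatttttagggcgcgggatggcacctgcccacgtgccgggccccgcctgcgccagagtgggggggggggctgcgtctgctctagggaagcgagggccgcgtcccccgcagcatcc

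*Gad1* held 1 GC box 8 bases before its start and 1 TATA box 141 bases before it, both on the other strand. Each *Slc12a5* window held 1 GC box on the other strand, 24 bases after the upstream start and 179 bases before the downstream start. *Gad2* and *Slc32a1* held neither. None of the 5 windows held the homeodomain core TAATTA or the E-box CAGCTG, searched on both strands, which says only that these letters are not in these windows. Over all 32851 RefSeq windows of this length, 35.7% held GGGCGG, 13.6% TATAAA, 5.29% TAATTA and 16.3% CAGCTG. The GC content was 60.0% for *Gad1*, 61.3% for *Gad2*, 63.3% for *Slc32a1*, and 63.7% and 68.3% for *Slc12a5*, beside a median of 52.7% over all windows. No window of *Abat*, *Slc38a1* or *Slc12a2* is shown.

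The labels were first set against marker genes. *Lhx6*, the gene of the reporter, is measured by 3 probes that did not agree. A pair of them read 5818 and 16913 in ES-GFP+ cells, 398.9 and 1374 in ES-GFP- cells, and 10244 and 25391 in MGE-GFP+ cells, in units of processed intensity, the scanner signal after background subtraction. The other *Lhx6* probe was bright on every array, at 111947, 122188 and 97733. All 13 genes listed for the *Lhx6* lineage were at least 2-fold higher in ES-GFP+ and in MGE-GFP+ than in ES-GFP- cells, with median log2 differences of 1.82 and 2.56. The shares of all genes at least 2-fold higher were 24.0% and 9.9%.

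Of 10 neuronal markers, 3 were at least 2-fold higher and 0 lower in ES-GFP+ than in ES-GFP- cells, beside 24.0% of all genes higher and 6.4% lower. The difference was above 0 for 9 of the 10 and below 0 for *Elavl4*, at -0.83 (log2). The summed intensities were 319485 in ES-GFP+, 278858 in ES-GFP- and 297031 in MGE-GFP+ cells, each led by *Snap25*. *Snap25* alone read 155223, 157422 and 147475 on these arrays, and so weighs heavily in each sum. Sums here and below are of intensities that were not scaled between arrays. Of 11 markers of radial glia and progenitors, 10 were at least 2-fold lower in ES-GFP+ than in ES-GFP- cells and 10 were at least 2-fold lower in MGE-GFP+ than in ES-GFP- cells, beside 6.4% and 17.2% of all genes. Their summed intensities were 9818 in ES-GFP+, 55916 in ES-GFP- and 9342 in MGE-GFP+ cells, and the brightest were *Hes5* in both GFP+ populations and *Vim* in ES-GFP- cells. Between the GFP+ populations 3 were at least 2-fold higher in MGE-GFP+ cells (*Mki67*, *Sox2* and *Top2a*, by 2.65-fold, 2.06-fold and 2.05-fold) and 3 lower, beside 5.48% and 32.2% of all genes. *Top2a* (39.9 in ES-GFP+ and 63.1 in MGE-GFP+ cells) was on both arrays below the 95th percentile of control probes that match no mouse transcript (377.8 and 152.8). So were the 3 lower genes, *Hes1*, *Slc1a3* and *Pax6*. *Mki67* was below that percentile in ES-GFP+ cells (264.0). *Pax6* was not well above background in MGE-GFP+ cells. The part of progenitor and neuron content in the differences that follow was not tested, and with bulk RNA fewer cells of a type and less RNA per cell cannot be told apart.

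Markers of other cell types were read the same way, beside 24.0% of all genes at least 2-fold higher and 6.4% lower in ES-GFP+ against ES-GFP- cells, and 5.48% higher and 32.2% lower in MGE-GFP+ against ES-GFP+ cells. Of the erythroid markers, *Hba-a1*, a globin gene of red blood cells and the brightest of the list, was 12.0-fold higher in MGE-GFP+ than in ES-GFP+ cells, with summed intensities of the list of 11702 in MGE-GFP+, 719.9 in ES-GFP+ and 594.9 in ES-GFP- cells. Of 6 astroglial markers, 4 were at least 2-fold lower in ES-GFP+ than in ES-GFP- cells, with summed intensities of 2210 and 4382, and 1054 in MGE-GFP+ cells. *Gja1* was not well above background in either GFP+ population. The brightest astroglial gene was *Slc1a2* in both GFP+ populations and *Aldh1l1* in ES-GFP- cells. Of 5 oligodendrocyte lineage markers, led by *Olig2*, 3 were at least 2-fold lower in ES-GFP+ than in ES-GFP- cells, with summed intensities of 946.8 and 6589, and 759.3 in MGE-GFP+ cells. Of 7 markers of glutamatergic neurons, 1 was at least 2-fold higher and 2 lower in ES-GFP+ than in ES-GFP- cells, and 1 higher and 3 lower in MGE-GFP+ than in ES-GFP+ cells. Their summed intensities were 950.6 in ES-GFP+, 1862 in ES-GFP- and 1331 in MGE-GFP+ cells, led by *Slc17a6* on both ES arrays and by *Tbr1* in MGE-GFP+ cells. *Tbr1*, a transcription factor of cortical glutamatergic neurons, read 104.7, 201.8 and 1020 on these arrays, 7.96-fold above ES-GFP+ cells in MGE-GFP+ cells. Both ES values lay below the 95th percentile of the control probes, and the difference was 2.75 (log2) in the deposited values. *Neurod6*, the gene higher in ES-GFP+ than in ES-GFP- cells, read 89.9 in ES-GFP+ cells, also below that percentile. It was not well above background in ES-GFP- or MGE-GFP+ cells. Of 3 microglial markers, led by *Csf1r*, 1 was at least 2-fold higher and 0 lower both in ES-GFP+ against ES-GFP- cells and in MGE-GFP+ against ES-GFP+ cells, with summed intensities of 1890, 1993 and 1899 in the same order of arrays, and *Cx3cr1* was not well above background on either ES array. The higher gene was *Aif1* in the first (252.3 against 73.1) and *Cx3cr1* in the second (75.3 in MGE-GFP+ cells). Both were below the control percentile on the arrays compared. Of 3 endothelial markers, led by *Kdr*, 0 passed 2-fold between the sorts of the culture, and 1 was higher and 1 lower in MGE-GFP+ against ES-GFP+ cells, with summed intensities of 605.5, 664.1 and 593.0. *Cdh5* was not well above background on any array. Of 4 pluripotency markers 2 were at least 2-fold lower in ES-GFP+ than in ES-GFP- cells, and the *Nanog* probe, the brightest of them, was bright on every array, at 230708, 251126 and 225105. The part of these cell types in the values of the GABA genes was not tested.

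Of the 9 genes, 8 were well above background on all 3 arrays, by the detection call of the scanner software, and above the 95th percentile of 106 control probes that match no mouse transcript. That percentile was at an intensity of 377.8 in ES-GFP+, 211.6 in ES-GFP- and 152.8 in MGE-GFP+ cells. The other, *Slc6a11*, the GABA transporter GAT3 that marks astroglia in the mature brain, read 23.2, 22.1 and 7.02 on the arrays in that order. It was not well above background on any of them, so no fold is given for it.

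**Figure D1:**
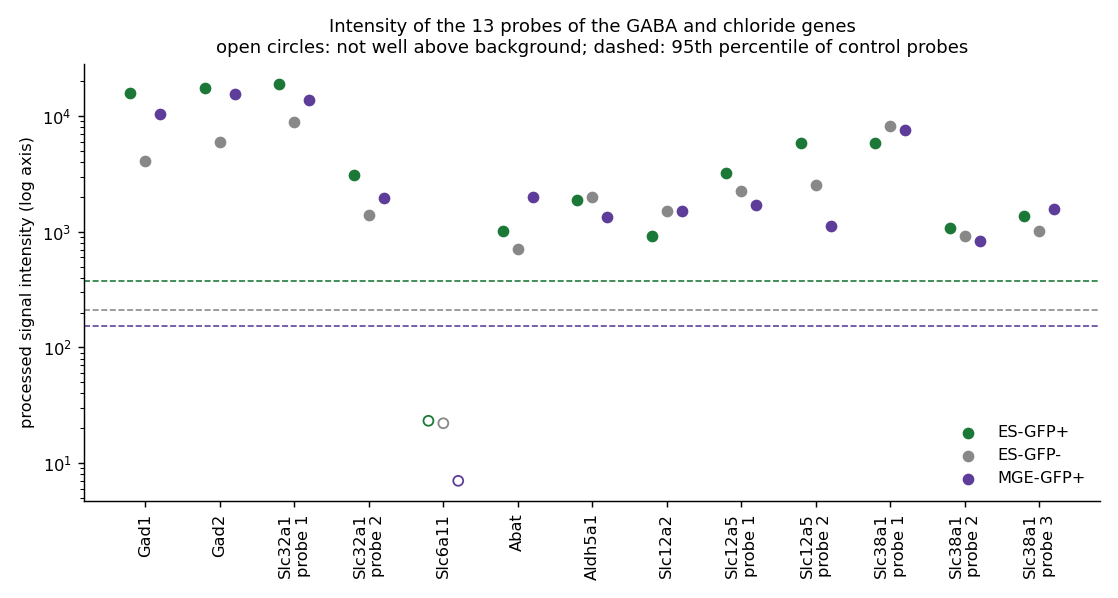
Processed signal intensity (log axis) of each of the 13 probes on the arrays of ES-GFP+, ES-GFP- and MGE-GFP+ cells, 1 point an array, with the 95th percentile of control probes of each array dashed in its color. *Slc6a11* (open circles) lies below the dashed lines, between 7.02 and 23.2, and every other probe lies above them.

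For comparisons, log2 intensities were set relative to the 75th percentile of each array, so that a level of 0 is the intensity below which 75% of the mouse probes lie. With 1 array a population there are no replicates and no test: the error given is the spread of repeat spots of the same probe on an array, with an SD of a difference of 0.20 in each comparison, and 2 SDs correspond to 1.32-fold. It covers printing and reading of the array only, and leaves out culture, embryos, sorting and amplification. A call means at least 2-fold. The median gene differed by 0.27 (log2) in ES-GFP+ against ES-GFP- cells, by -0.36 in MGE-GFP+ against ES-GFP+ cells and by -0.06 in MGE-GFP+ against ES-GFP- cells. Folds of the members past 2 SDs are therefore also given relative to that shift. The 3 comparisons share arrays, so they are set side by side and not counted as separate support.

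In ES-GFP+ against ES-GFP- cells, 4 of the 9 genes were at least 2-fold higher (*Gad1*, *Gad2*, *Slc32a1*, *Slc12a5*) and 0 at least 2-fold lower, beside 24.0% of 18655 genes higher and 6.4% lower. In MGE-GFP+ against ES-GFP- cells, 4 were at least 2-fold higher (*Abat*, *Gad2*, *Gad1*, *Slc32a1*) and 0 lower, beside 9.9% of 17025 genes higher and 17.2% lower. In MGE-GFP+ against ES-GFP+ cells, 2 were at least 2-fold higher (*Abat*, *Slc12a2*) and 1 lower (*Slc12a5*), beside 5.48% of 18580 genes higher and 32.2% lower. The median log2 difference of the 8 genes with a value was 0.85, 0.89 and 0.05 in these comparisons in that order, against medians over all genes of 0.27, -0.06 and -0.36.

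These shares turn on the scaling. With each array scaled to its 50th percentile instead, 14.9% of all genes were at least 2-fold higher and 13.7% lower in ES-GFP+ than in ES-GFP- cells, 17.9% and 12.6% in MGE-GFP+ than in ES-GFP- cells, and 26.0% and 17.1% in MGE-GFP+ than in ES-GFP+ cells. The members higher and lower by at least 2-fold were then 2 and 0, 4 and 0, and 3 and 0. After quantile normalization the shares of all genes were 11.5% and 15.0%, 10.4% and 12.8%, and 14.6% and 13.7%, and the members were 4 and 0, 3 and 0, and 1 and 1. By the deposited log2 values the shares were lower, at 6.41% and 6.75%, 6.66% and 9.44%, and 5.89% and 8.31%, with the members again at 4 and 0, 3 and 0, and 1 and 1.

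**Figure D2:**
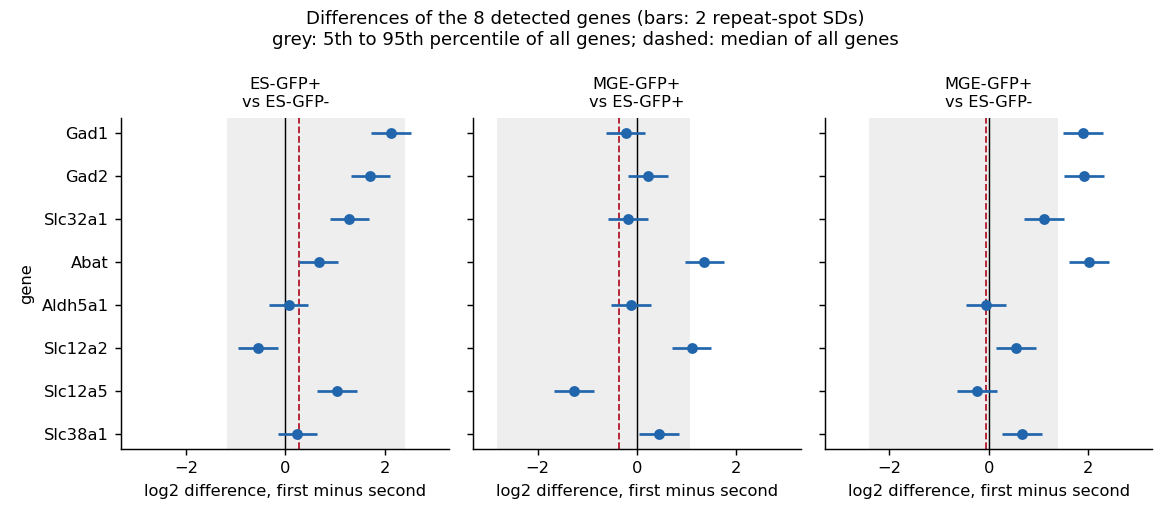
Log2 difference (x axis) of the 8 detected genes (y axis) in each comparison, with bars of 2 repeat-spot SDs, the 5th to 95th percentile of all genes in grey and their median dashed. *Gad1* and *Gad2* lie to the right in both comparisons with ES-GFP- cells and within 2 SDs of 0 between the GFP+ populations with this 75th percentile scaling, where *Slc12a5* (-1.27) and *Abat* (1.36) lie at opposite ends.

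Of the synthesis genes, *Gad1* (NM_008077) read 15760 in ES-GFP+, 4071 in ES-GFP- and 10376 in MGE-GFP+ cells. Both GFP+ arrays were thus above the GFP- array. On the scaled log2 scale its levels were 4.40, 2.27 and 4.17. *Gad1* was 4.37-fold higher in ES-GFP+ than in ES-GFP- cells (log2 difference 2.13, 1 SD interval 1.93 to 2.33), or 3.64-fold relative to the median gene, and 7.08% of genes had a higher difference. Against ES-GFP- cells MGE-GFP+ cells were 3.73-fold higher (1.90, 1.7 to 2.1), or 3.88-fold relative to the median gene, with 1.98% of genes above it. Between the GFP+ populations the difference was within 2 SDs, at -0.23, and its sign turned with the scaling: it was 0.13 relative to the median gene, 0.52 with the 50th percentile and -0.61 in the log2 values the authors deposited.

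*Gad2* (NM_008078) read 17447, 6024 and 15656 on the same arrays, with scaled log2 levels of 4.55, 2.84 and 4.76. The order was again GFP+ above GFP-. It was 3.27-fold higher in ES-GFP+ (log2 difference 1.71, 1 SD interval 1.51 to 1.91) and 3.81-fold higher in MGE-GFP+ (1.93, 1.73 to 2.13) than in ES-GFP- cells. Relative to the median gene these were 2.72-fold and 3.95-fold. Between the GFP+ populations the difference was 0.22 in favor of MGE-GFP+ cells, within 2 SDs, and it was -0.10 in the deposited log2 values and 0.97 with the 50th percentile.

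The *Gad1* and *Gad2* differences lay close to each other in each comparison. The ratio of *Gad1* over *Gad2* differed by 0.42 (log2) between ES-GFP+ and ES-GFP- cells, by -0.45 between MGE-GFP+ and ES-GFP+ cells and by -0.03 between MGE-GFP+ and ES-GFP- cells, each within 2 SDs of such a ratio (0.56 to 0.57). A ratio of 2 genes on the same array does not move with the scaling between arrays.

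*Slc32a1* (NM_009508) has 2 probes, which read 19127 and 3089 in ES-GFP+, 8910 and 1411 in ES-GFP- and 13930 and 1959 in MGE-GFP+ cells. Both probes were highest in ES-GFP+ and lowest in ES-GFP- cells. They gave 2.42-fold and 2.47-fold for ES-GFP+ over ES-GFP- cells, 2.45-fold on average, and 2.29-fold and 2.03-fold for MGE-GFP+ over ES-GFP- cells, 2.16-fold on average. Relative to the median gene the averages were 2.04-fold and 2.24-fold. The first fell below 2-fold with the 50th percentile (0.85, log2) and the second after quantile normalization (0.98) and in the log2 values as deposited (0.93). Between the GFP+ populations the difference was -0.18, within 2 SDs, and 0.57 with the 50th percentile. Its ratio to *Gad1* was 1.79-fold (ES-GFP+) and 1.73-fold (MGE-GFP+) below that in ES-GFP- cells, both past 2 SDs, so the vesicular transporter differed less than *Gad1* between the sorts.

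Of the breakdown genes, *Abat* (NM_172961), the transaminase, read 1006 in ES-GFP+, 716.5 in ES-GFP- and 1996 in MGE-GFP+ cells. Of the 8 genes with a value it had the highest log2 difference in both comparisons that involve MGE-GFP+ cells. It was within 2 SDs of *Gad1* and *Gad2* in that with ES-GFP- cells, and of *Slc12a2* (1.1) in that with ES-GFP+ cells. The MGE-GFP+ array was 4.08-fold above ES-GFP- (log2 difference 2.03, 1 SD interval 1.83 to 2.23) and 2.57-fold above ES-GFP+ (1.36, 1.16 to 1.56), and 1.57% and 2.25% of genes had higher differences. ES-GFP+ cells were 1.59-fold above ES-GFP- cells (0.67), past 2 SDs but 0.22 with the 50th percentile. Relative to the median gene these were 4.24-fold, 3.29-fold and 1.32-fold. The ratio of *Gad1* over *Abat* was 2.76-fold higher in ES-GFP+ than in ES-GFP- cells, and MGE-GFP+ cells were 3.01-fold below ES-GFP+ cells. Between MGE-GFP+ and ES-GFP- cells it differed by -0.13 (log2), within 2 SDs.

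*Aldh5a1* (NM_172532), which acts after *Abat*, read 1876, 2018 and 1330 on the arrays of ES-GFP+, ES-GFP- and MGE-GFP+ cells. Its log2 differences of 0.07, -0.12 and -0.05 were all within 2 SDs, in the order ES-GFP+ against ES-GFP-, MGE-GFP+ against ES-GFP+ and MGE-GFP+ against ES-GFP-. Each of the 3 signs turned under some of the 11 other ways of processing, over which the values ran from -0.37 to 0.13, from -0.31 to 0.63 and from -0.17 to 0.25.

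ES-GFP+ cells had the highest *Slc12a5* and the lowest *Slc12a2* of the 3 populations. *Slc12a5* (NM_020333), the chloride exporter KCC2, has 2 probes, which read 3246 and 5816 in ES-GFP+, 2270 and 2522 in ES-GFP- and 1721 and 1129 in MGE-GFP+ cells. Both were highest in ES-GFP+ cells. Averaged over the probes, *Slc12a5* was 2.05-fold higher in ES-GFP+ than in ES-GFP- cells while MGE-GFP+ cells were 2.40-fold below ES-GFP+ cells. These became 1.71-fold and 1.88-fold relative to the median gene, and 0.59 and -0.52 (log2) with the 50th percentile.

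The *Slc12a5* probes agreed in direction in these comparisons but not in size. For MGE-GFP+ against ES-GFP+ cells one was 1.45-fold and the other 3.97-fold lower, and for ES-GFP+ against ES-GFP- cells 1.61-fold and 2.6-fold higher. Between MGE-GFP+ and ES-GFP- cells they differed in sign, at 0.15 and -0.61 (log2), and their mean of -0.23 was within 2 SDs. Which transcripts each probe detects was not tested.

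*Slc12a2* (NM_009194), the chloride importer NKCC1, read 915.0 in ES-GFP+, 1511 in ES-GFP- and 1516 in MGE-GFP+ cells. ES-GFP+ cells were the lowest of the 3 populations. It was 1.46-fold lower in ES-GFP+ than in ES-GFP- cells (log2 difference -0.55), 2.15-fold higher in MGE-GFP+ than in ES-GFP+ cells (1.10) and 1.47-fold higher in MGE-GFP+ than in ES-GFP- cells (0.55), each past 2 SDs. Relative to the median gene these were 1.76-fold lower, 2.75-fold higher and 1.53-fold higher. The 2.15-fold value fell to 0.96 (log2) after quantile normalization and to 0.89 in the deposited values, and rose to 1.85 with the 50th percentile.

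The ratio of *Slc12a5* over *Slc12a2* was 3.00-fold higher in ES-GFP+ than in ES-GFP- cells, and MGE-GFP+ cells were 5.16-fold below ES-GFP+ cells. By the first *Slc12a5* probe these were 2.36-fold and 3.13-fold, and by the second 3.81-fold and 8.53-fold, all past 2 SDs. Between MGE-GFP+ and ES-GFP- cells the ratio was 1.72-fold lower in MGE-GFP+ cells, past 2 SDs with the second probe (2.24-fold) and not with the first (1.32-fold). Over 11 other ways of processing the log2 difference of the ratio ran from 1.38 to 1.93, from -3.09 to -2.16 and from -1.16 to -0.77 in these 3 comparisons.

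**Figure D3:**
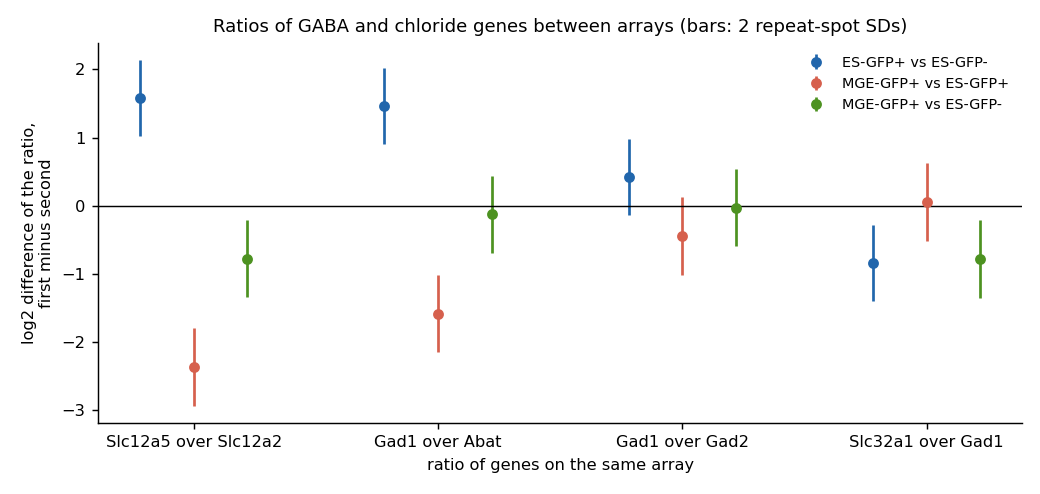
Log2 difference between arrays (y axis) of 4 ratios of genes on the same array (x axis), with bars of 2 repeat-spot SDs, for each comparison in its color. The ratio of *Slc12a5* over *Slc12a2* lies at 1.58, -2.37 and -0.78, and *Gad1* over *Gad2* within 2 SDs of 0 in all 3 comparisons.

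*Slc38a1* (NM_134086), the glutamine transporter, has 3 probes, which read 5904, 1087 and 1374 in ES-GFP+, 8246, 920.3 and 1021 in ES-GFP- and 7610, 837.1 and 1569 in MGE-GFP+ cells. They did not give 1 order of the populations. For ES-GFP+ against ES-GFP- cells their log2 differences were -0.31, 0.42 and 0.60, and the mean of 0.24 was within 2 SDs. For MGE-GFP+ against ES-GFP- cells all 3 were higher, by 0.43, 0.41 and 1.17, 1.59-fold on average or 1.66-fold relative to the median gene. For MGE-GFP+ against ES-GFP+ cells they were 0.74, 0.00 and 0.57. The mean of 0.44 (1.35-fold, or 1.73-fold relative to the median gene) was just past 2 SDs, and it was within them with quantile normalization (0.26) and by the log2 values as deposited (0.23). With the 50th percentile it was 1.18, past 2-fold.

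With 75th percentile scaling the order of the populations differed between genes. ES-GFP- cells were lowest and both GFP+ populations within 2 SDs of each other for *Gad1*, *Gad2* and *Slc32a1*. With the 50th percentile the GFP+ populations differed past 2 SDs for all 3, and with quantile normalization and by the deposited values they did so the other way for *Gad1* (-0.49 and -0.61) and *Slc32a1* (-0.43 and -0.42). MGE-GFP+ cells were highest, ES-GFP+ next and ES-GFP- lowest for *Abat*, with every step past 2 SDs except that between the sorts of the culture with the 50th percentile. ES-GFP+ cells were lowest for *Slc12a2* and highest for *Slc12a5*, above 2 populations within 2 SDs of each other by the mean of the *Slc12a5* probes. By the second of these probes MGE-GFP+ cells were below ES-GFP- cells past 2 SDs (-0.61, log2). For *Slc38a1* MGE-GFP+ cells were above ES-GFP- cells, and just past 2 SDs above ES-GFP+ cells with 75th percentile scaling but not after quantile normalization. With the 50th percentile MGE-GFP+ cells were 1.18 (log2) above ES-GFP+ cells for *Slc38a1*. No pair differed past 2 SDs for *Aldh5a1*, but with the 50th percentile MGE-GFP+ and ES-GFP+ cells did (0.63).

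**Figure D4:**
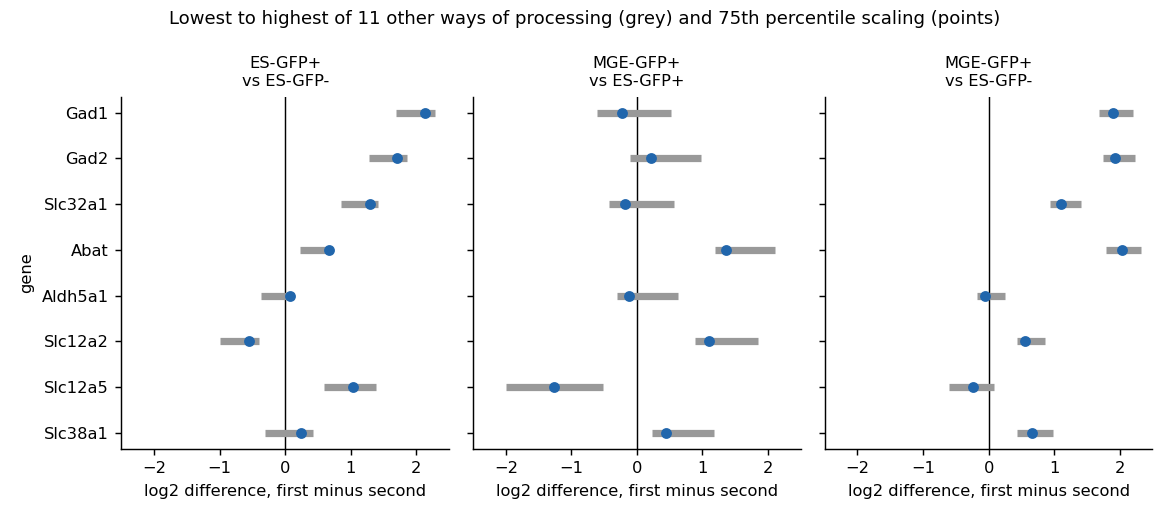
Log2 difference (x axis) of each of the 8 genes (y axis) in the 3 comparisons with 75th percentile scaling (points) and the lowest to highest value over 11 other ways of processing (grey bars). Bars of *Gad1*, *Gad2* and *Slc32a1* stay to the right of 0 in both comparisons with ES-GFP- cells and cross 0 between the GFP+ populations.

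Genes with scaled levels close to a member over the 3 arrays were sought after each gene was centered on its own mean. Genes of the lists used here, markers included, were left out as neighbors. Closest to *Gad1* were then *Osgin2*, *Brinp2*, *Trank1* and *Gpm6a*, at Euclidean distances of 0.0349, 0.0451, 0.152 and 0.152 (log2) among 10700 genes detected on all arrays. The listed marker *Erbb4* also lay close to *Gad1*. Against ES-GFP- cells its log2 differences were 2.24 (ES-GFP+) and 1.94 (MGE-GFP+), beside 2.13 and 1.90 for *Gad1*. *Gad2* was at 0.354 from *Gad1*, with 25 genes nearer, and *Slc32a1* at 0.665, with 149 nearer. The closest to *Gad2* were *Ncr1*, *Cyrib*, *Nab1* and *Unc5c*, at 0.0245 to 0.104. The closest to *Slc12a5* were *Tmcc2*, *Catsper4*, *Muc5b* and *Hoxc5*, at 0.0312 to 0.0496, with 60 genes within 0.2. At intensities of 304.8, 80.3 and 197.9 for *Osgin2* and 248.1, 84.1 and 217.7 for *Ncr1* in ES-GFP+, ES-GFP- and MGE-GFP+ cells, the nearest genes to *Gad1* and *Gad2* were inside the range of control probes on both ES arrays. The neighbors of *Slc12a5* had intensities from 148.8 for *Tmcc2* in MGE-GFP+ cells to 804.3 for *Hoxc5* in ES-GFP+ cells. All lay above the range of control probes except *Tmcc2* in MGE-GFP+ cells. Many genes share a pattern over 3 arrays, and the names describe likeness on these arrays only.

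Of 55 other genes of GABA metabolism, transport and chloride, 53 were on the array. In ES-GFP+ against ES-GFP- cells 7 of 51 with a value were at least 2-fold higher and 9 lower. In MGE-GFP+ against ES-GFP+ cells 1 was higher and 22 lower of 51, and in MGE-GFP+ against ES-GFP- cells 1 was higher and 17 lower of 50. The shares of all genes higher and lower in these comparisons were 24.0% and 6.4%, 5.48% and 32.2%, and 9.9% and 17.2%. With the 50th percentile these became 5 and 18, 5 and 9, and 3 and 13, with quantile normalization 4 and 15, 3 and 12, and 2 and 13, and by the deposited values 4 and 8, 0 and 11, and 1 and 12. The median log2 differences were 0.15, -0.77 and -0.56, beside 0.27, -0.36 and -0.06 over all genes. Many of these genes were dim, and the control probes were brighter in ES-GFP+ cells, with a median intensity of 70.6 against 12.6 in ES-GFP- and 8.48 in MGE-GFP+ cells. With each array raised to the 95th percentile of its control probes, fewer genes had a value (40, 36 and 39), and the counts were 4 and 7, 1 and 9, and 1 and 12. The shares of all genes under that floor are not given here, so whether these counts differ from all genes cannot be told.

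Of the other GABA transporters, *Slc6a13* and *Slc6a12* were below the 95th percentile of the control probes on every array. *Slc6a6*, which carries taurine and also GABA, differed by less than 2-fold in each comparison with 75th percentile scaling, and by -1.05 (log2) in MGE-GFP+ against ES-GFP+ cells in the deposited values.

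In ES-GFP+ against ES-GFP- cells 1 of 10 genes that supply glutamine and glutamate was at least 2-fold higher and 2 lower. The shares of all genes were 24.0% and 6.4%. In each comparison with MGE-GFP+ cells 0 were higher and 4 lower, beside 32.2% of all genes lower against ES-GFP+ and 17.2% against ES-GFP- cells. The 4 lower than in ES-GFP+ cells, *Gls2*, *Slc38a3*, *Slc38a5* and *Slc1a3*, were inside the range of control probes on both of those arrays, and none passed 2-fold in the deposited values. *Slc1a3*, the glial glutamate transporter GLAST and also 1 of the radial glia markers above, read 152.4 in ES-GFP+, 2338 in ES-GFP- and 30.4 in MGE-GFP+ cells. It was 13.6-fold lower in ES-GFP+ and 52.5-fold lower in MGE-GFP+ than in ES-GFP- cells, with the GFP+ values inside the range of control probes, and the second was -4.29 (log2) in the deposited values. *Slc38a3*, a glutamine transporter of astroglia, read 23.5 in MGE-GFP+ and 213.0 in ES-GFP- cells, the first inside that range and the second just above the 211.6 of its array. The 6.19-fold lower value in MGE-GFP+ cells was -0.95 (log2) in the deposited values, less than 2-fold.

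GABA can also be made from putrescine and broken down by other routes. *Maob* (monoamine oxidase B) read 385.0 in ES-GFP+, 4788 in ES-GFP- and 31.0 in MGE-GFP+ cells, 11-fold and 105.0-fold lower in the GFP+ populations than in ES-GFP- cells. The MGE-GFP+ value lies inside the range of control probes, and its difference was -5.02 (log2) in the deposited values. *Maoa* was 8.36-fold and *Aldh9a1*, an aldehyde dehydrogenase that can make GABA, 4.49-fold lower in MGE-GFP+ than in ES-GFP- cells, with -2.43 and -1.91 (log2) in the deposited values. Of the 7 genes of this group 1 was at least 2-fold higher and 3 lower in ES-GFP+ than in ES-GFP- cells, beside 24.0% and 6.4% of all genes, and 0 higher and 4 lower in MGE-GFP+ than in ES-GFP- cells, beside 9.9% and 17.2%. The 1 higher gene, *Gadl1*, was inside the range of control probes on every array and at 0.33 (log2) in the deposited values. Of 5 genes of the GAD cofactor and of proteins that bind or anchor the enzymes, 0 were higher and 0 lower by at least 2-fold between the sorts of the culture.

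Of 7 other cation-chloride cotransporters 6 had a value in MGE-GFP+ against ES-GFP+ cells, and 4 of them were at least 2-fold lower and 0 higher, beside 32.2% and 5.48% of all genes. Of the 4, *Slc12a3* and *Slc12a8* were not well above background in MGE-GFP+ cells and lay below the 95th percentile of the control probes on every array. The count includes *Slc12a7* (KCC4), which read 1115 in ES-GFP+, 1043 in ES-GFP- and 346.1 in MGE-GFP+ cells. With the 50th percentile *Slc12a7* was at -0.57 (log2) and *Slc12a9*, also of the 4, at -0.79, both less than 2-fold. Of the 5 kinases of these transporters on the array, *Wnk4* alone was past 4-fold, at 801.9 in ES-GFP+, 100.6 in ES-GFP- and 35.2 in MGE-GFP+ cells. WNK kinases act on NKCC1 and KCC2 in opposite directions. *Wnk4* was 9.0-fold higher in ES-GFP+ than in ES-GFP- cells, and MGE-GFP+ cells were 17.6-fold below ES-GFP+ cells, with both lower arrays inside the range of control probes, and these were 2.48 and -2.73 (log2) in the deposited values. *Wnk1*, *Wnk2*, *Stk39* and *Oxsr1* differed by less than 2-fold in each comparison with 75th percentile scaling. With the 50th percentile *Stk39* was at -1.22 (log2) in ES-GFP+ against ES-GFP- and 1.43 in MGE-GFP+ against ES-GFP+ cells.

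Of 9 other chloride and bicarbonate genes, *Slc4a8*, a sodium-driven chloride-bicarbonate exchanger, was, with 75th percentile scaling, the only one at least 2-fold higher in any comparison. It read 3408 in ES-GFP+, 1496 in ES-GFP- and 5290 in MGE-GFP+ cells. *Slc4a8* was 2.57-fold higher in ES-GFP+ and 5.18-fold higher in MGE-GFP+ than in ES-GFP- cells. *Ttyh1*, a membrane protein of neural progenitors, was 5.23-fold and 9.65-fold lower in the same populations.

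Of the 5 transporters of other transmitters with a value, 3 were at least 2-fold lower and 0 higher in ES-GFP+ than in ES-GFP- cells, beside 6.4% and 24.0% of all genes, and 4 were lower and 0 higher in MGE-GFP+ than in ES-GFP- cells, beside 17.2% and 9.9%. *Slc18a2* (VMAT2, of monoamine vesicles) read 923.9 in ES-GFP+, 4702 in ES-GFP- and 256.6 in MGE-GFP+ cells, 10.8-fold lower in MGE-GFP+ than in ES-GFP- cells. *Slc17a8* (VGLUT3, a vesicular glutamate transporter) was 7.72-fold lower in ES-GFP+ and 70.9-fold lower in MGE-GFP+ than in ES-GFP- cells. In MGE-GFP+ cells 1 of its 2 probes was not well above background and was raised to the lowest detected value. Both GFP+ values lay inside the range of control probes. The 70.9-fold value (-6.15, log2) is therefore not a lower limit, and it was -4.58 in the deposited values. *Slc17a6* (VGLUT2), inside the range of control probes in MGE-GFP+ cells, was 4.07-fold and *Slc6a9* (the glycine transporter GLYT1) 4.62-fold lower in MGE-GFP+ than in ES-GFP- cells. *Slc17a7* (VGLUT1) was not well above background on any array. Of the vesicular transporters in this group, each that passed 2-fold was highest in ES-GFP- cells, in which *Gad1* and *Gad2* were lowest.

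**Figure D5:**
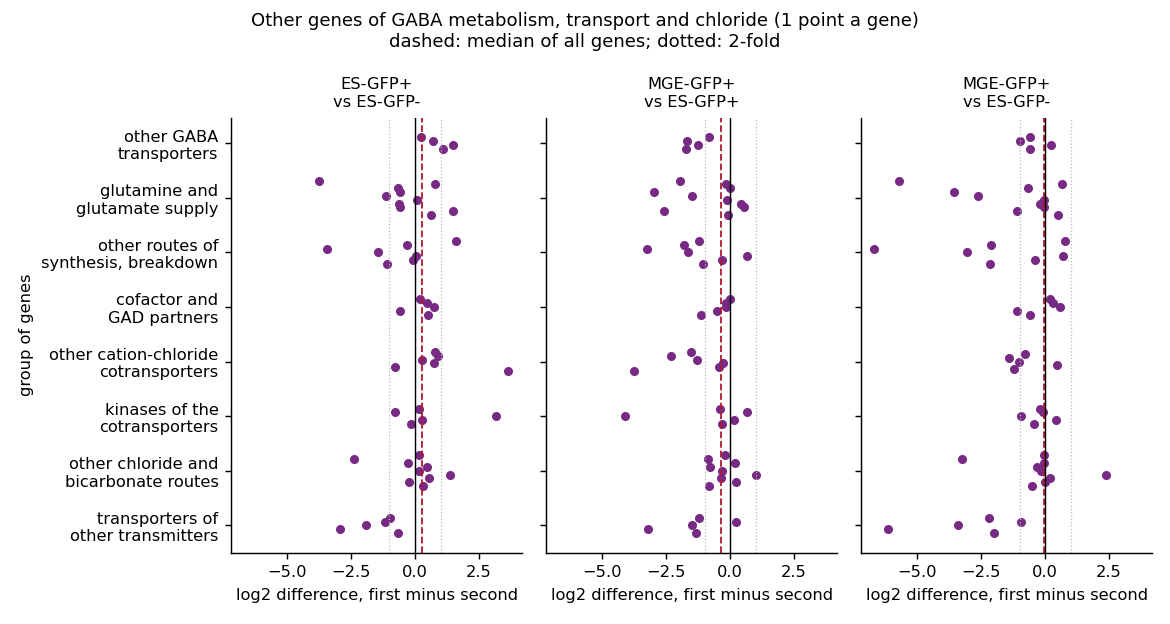
Log2 difference (x axis) of each of the other genes with a value, by group (y axis), in the 3 comparisons, with the median of all genes dashed and 2-fold dotted. In MGE-GFP+ against ES-GFP+ cells 22 of 51 points lie at or below -1 and 1 at or above 1.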

How the data were processed

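Amplified, Cy3-labeled RNA of 3 sorted populations was hybridized to Agilent mouse arrays, 1 array each on 1 slide, so no batch could be separated. The labels and the study's methods differ on the amplification kit and array format. The authors extracted intensities with Feature Extraction 10.7.3.1 (per the file headers, with probes placed on mm9), and the deposited processed intensity is background-subtracted. The log2 values the authors deposited lay within a median of 0.0311 to 0.0399 of quantile-normalized median intensities and served as an alternative.

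Members and gene lists were chosen with earlier results of these data known. Probes were named through their RefSeq transcript. Outlier spots were left out, log2 processed intensity was set relative to the 75th percentile of mouse probes, and probes of a gene were averaged. A difference was computed where either array of the pair had the detection call (well above background, 77.1% to 90.6% of mouse probes), and an array without it was raised to its lowest detected value. No spot was saturated. The error was the SD over 305 to 358 probes with at least 5 spots. Other pathway genes were named when 4-fold apart and above the control probes on the brighter array, and some genes of the lists are not reported here. Scripts used numpy 2.4.6, pandas 2.3.3, matplotlib 3.10.9, R 4.3.3 and limma 3.58.1 (for normexp) and were tested on simulated data.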

Additional observations from a re-analysis of the deposited data

How the results depend on the processing

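Each count and median of the 8 measured genes was recomputed in 11 other ways, giving 99 values, of which 85 stayed close and 14 moved. The detection call on both arrays and the floor at the control probes could not move these values, as the 8 genes passed both on every array. The median in MGE-GFP+ against ES-GFP+ cells, near 0 at 0.05, changed sign after quantile normalization (-0.16), without a filter on dim probes (-0.12) and in the deposited values (-0.13). Scaling to the 50th percentile gave a median log2 difference of 0.41 in ES-GFP+ against ES-GFP- cells with 2 genes at least 2-fold higher, 0.80 in MGE-GFP+ against ES-GFP+ cells with 0 at least 2-fold lower, and 1.2 in MGE-GFP+ against ES-GFP- cells. Centering on the median gene gave 0.58 in the first and 0.40 in the second, with 0 lower in the second. In that comparison quantile normalization and the deposited log2 values each gave 1 gene at least 2-fold higher. Without a filter on dim probes, *Slc6a11* entered and 2 genes were at least 2-fold lower in MGE-GFP+ than in ES-GFP+ cells and 1 lower than in ES-GFP- cells, where the median was 0.67. Of 264 single values 58 moved, among them all 24 with the 50th percentile and 16 of 24 with centering on the median gene. Of 132 ratios 3 moved, these with the brightest probe of *Slc12a5* alone. No called value changed sign. Leaving out the filter, the call on both arrays and the control floor could not move a single value or a ratio of these genes. Scaling to the 50th percentile and centering could not move a ratio either. The normexp correction was run on median intensities, a choice made after seeing the data, as the mean signal planned for it is not used here, and the ratios were added then too. No replicate could be left out, and no paired analysis was possible because each population has 1 array. The number of arrays limits the precision, and the brighter control probes of ES-GFP+ cells limit dim genes.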
